A study of Mus musculus with 36 samples.

Results

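The midbrain-hindbrain organizer and cerebellar precursor genes En1, En2, Cnpy1, Fgf17, Pax2, Pax5, Atoh1, Ptf1a, Barhl1 and Zic1 were followed through brain RNA of mice heterozygous for Chd8+/S62X (HT) and of wild-type mice (WT). These 10 genes, of 29799 in the table, were chosen by name. The choice drew on their uneven levels among the newborn libraries, their persistence at later ages and the HT and WT levels of Cnpy1, so those values are given as descriptions without a test. Brains of C57BL/6 mice labelled as whole brain were sequenced in 12 groups, which combine P0, P25 or P80 with male or female and HT or WT, each with 3 libraries and, per the study's methods, 3 mice. HT mice carry 1 copy of Chd8 with a stop codon knocked in (S62X), and WT mice carry none. No other allele or agent is named for either genotype. One field of the oldest libraries reads P56, but P80 is what their titles and age labels say, and it is used here.

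The isthmic organizer forms in the embryo where midbrain meets hindbrain, and its secreted FGF and WNT signals pattern the midbrain on one side and the cerebellum on the other. The homeobox genes En1 and En2 and the paired-box genes Pax2 and Pax5 are expressed around this boundary, where Fgf17 encodes one of the FGF ligands and Cnpy1 a protein known from zebrafish as a positive modulator of FGF receptor signalling. The cerebellum is then built from 2 germinal zones. Atoh1 marks the rhombic lip, which gives granule cells and other glutamatergic neurons, and Ptf1a marks the ventricular zone, which gives Purkinje cells and GABAergic interneurons. Barhl1 encodes a homeobox factor of granule cell precursors, and Zic1 a zinc finger factor of dorsal neural tissue, granule cells and meninges.

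All coordinates are on GRCm38. En2 (chr5:28165694-28172166, plus strand) and Cnpy1 (chr5:28200819-28245806, minus strand) are neighbours that lie 28.7 kb apart with 0 annotated genes between them. En1 lies at chr1:120602418-120607992, Fgf17 at chr14:70636203-70642268, Pax2 at chr19:44756045-44837871 and Pax5 at chr4:44524757-44710487. Fgf17 lies on the chromosome of Chd8, 18.4 Mb from it. Atoh1 lies at chr6:64729125-64731245, Ptf1a at chr2:19445663-19447501, Barhl1 at chr2:28907679-28916668 and Zic1 at chr9:91358058-91365810. Zic1 overlaps Zic4 on the opposite strand, and En2, Pax2 and Pax5 each overlap at least 1 transcript of the opposite strand that the table also lists. The library kit does not mark strand, so reads from such overlaps cannot be told apart.

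The promoter windows of En1, Cnpy1 and Barhl1 are shown because these, of the genes of the 10 with a window, moved most closely with En2 among the newborn libraries (Pearson's r of 0.988, 0.994 and 0.962). The sequences are from RefSeq (GRCm38.p6) and run 5′ to 3′ on the strand of the gene, from 250 bases before to 50 after an annotated start, so that the last bases are transcribed. Capitals mark matches, on either strand, to 4 short motifs, the homeodomain core TAATTA, the E-boxes CAGCTG and CAGATG, and the ETS core CCGGAAG. The windows are En1 at chr1:120602237-120602536 (plus strand), Cnpy1 at an upstream start, chr5:28245739-28246038, and at an internal start, chr5:28210119-28210418, and Barhl1 at chr2:28916619-28916918 (the last 3 on the minus strand).
En1: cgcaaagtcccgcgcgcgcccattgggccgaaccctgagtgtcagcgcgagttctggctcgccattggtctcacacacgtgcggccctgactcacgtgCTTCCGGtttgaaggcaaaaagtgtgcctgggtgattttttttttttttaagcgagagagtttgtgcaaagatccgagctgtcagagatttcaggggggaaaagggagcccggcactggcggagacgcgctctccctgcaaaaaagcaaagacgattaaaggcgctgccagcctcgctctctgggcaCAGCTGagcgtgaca
Cnpy1 upstream: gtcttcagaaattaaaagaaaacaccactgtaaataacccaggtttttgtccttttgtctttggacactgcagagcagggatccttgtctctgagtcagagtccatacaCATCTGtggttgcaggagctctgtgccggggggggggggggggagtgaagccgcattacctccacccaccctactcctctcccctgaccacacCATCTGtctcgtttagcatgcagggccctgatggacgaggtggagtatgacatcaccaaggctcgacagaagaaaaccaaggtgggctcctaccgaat
Cnpy1 internal: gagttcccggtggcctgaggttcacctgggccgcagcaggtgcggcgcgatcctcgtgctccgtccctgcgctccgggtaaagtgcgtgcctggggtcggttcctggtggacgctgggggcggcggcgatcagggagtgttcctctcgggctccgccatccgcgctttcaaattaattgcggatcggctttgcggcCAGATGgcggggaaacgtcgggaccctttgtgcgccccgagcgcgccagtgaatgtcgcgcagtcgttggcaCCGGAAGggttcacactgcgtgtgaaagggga
Barhl1: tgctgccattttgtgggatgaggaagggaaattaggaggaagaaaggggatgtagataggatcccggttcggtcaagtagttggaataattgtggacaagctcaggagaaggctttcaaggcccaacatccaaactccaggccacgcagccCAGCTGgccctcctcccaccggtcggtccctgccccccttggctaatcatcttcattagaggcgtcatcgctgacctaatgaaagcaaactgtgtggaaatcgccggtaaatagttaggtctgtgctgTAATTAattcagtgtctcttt

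The upstream Cnpy1 window had an observed to expected CpG ratio of 0.28 and the internal window 1.05, so that a CpG-poor and a CpG-rich start lie within 1 gene. The En1 window had a ratio of 0.95 and the printed Barhl1 window 0.48. Barhl1 has another window, at chr2:28912446-28912745, that is not printed and had a ratio of 0.65. Windows were held for 8 of the 10 genes, 12 windows in all, and none was used for En2 and Fgf17. Their median CpG ratio was 0.80, beside 0.38 over all 32851 windows, and their median GC content was 58.0%, beside 52.7%. TAATTA was found in 1 of the 12 windows (5.3% of all windows), CAGCTG in 4 (16.3%), CAGATG in 2 (17.2%) and CCGGAAG in 2 (8.9%). The 10 matches did not overlap each other, and no motif was shared by all of the windows printed.

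Values are the authors' normalized counts, that is, estimated fragments per gene divided by the authors' normalization factors. They summed to between 31872449 and 38154000 a library. Chd8 was higher in HT than in WT without overlap in both sexes at P25 and P80, with log2 differences between 0.36 (SE 0.05) and 0.70 (SE 0.06), while the P0 groups overlapped. The count takes in RNA of both alleles. Regional markers did not match the whole-brain label in the same way in all P0 libraries. The summed level of 14 telencephalon markers was between 2723 and 6218 in 7 P0 libraries (HT 1 and HT 3 and WT 2 of the females, all 3 male HT, and male WT 1) and between 58558 and 78906 in the other 5, while all 24 later libraries lay between 12696 and 15362. P0 libraries were therefore described one by one, and each genotype difference at P0 is given with these markers beside it.

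At P0 the engrailed genes were present in the 7 libraries with low telencephalon markers and near absent from the 5 with high ones. En2 stood between 701 and 2201 in 6 libraries, at 75.1 in male WT 1 and between 1.57 and 5.99 in the other 5. En1 was 1074, 957 and 469 in the male HT libraries and 90.5, 2.95 and 6.19 in the male WT libraries. In females En1 was 450, 4.08 and 972 in HT against 4.66, 856 and 11.9 in WT. The male genotypes did not overlap for En1, whereas each female genotype held both high and low libraries.

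Cnpy1 followed the engrailed genes. It was 3099, 2083 and 1829 in male HT against 138, 47.0 and 28.6 in male WT. In females it was 1321, 20.3 and 2836 in HT against 50.03, 1314 and 29.9 in WT. Unlike En2, Cnpy1 kept a level of at least 20.3 in every library. The ratio of Cnpy1 to En2 stayed between 1.24 and 1.89 in the 7 libraries, male WT 1 included, and was between 7.06 and 12.9 in the 5 others, where En2 itself was at 5.99 or less.

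The paired-box genes were high in the same 7 libraries but in another order. Pax2 was 804, 671 and 1630 in male HT against 2765, 11.1 and 8.22 in male WT, so that its highest value of all stood in male WT 1, where En2 was 75.1. In females Pax2 was 2090, 9.53 and 1928 in HT against 3.98, 800 and 5.94 in WT. Pax5 was 1369, 1747 and 368 in male HT against 177, 14.7 and 0.954 in male WT. In females Pax5 was 659, 26.8 and 831 in HT against 4.64, 2117 and 8.10 in WT, with its highest value in female WT 2. The ratio of Pax2 to Pax5 within the 7 libraries ran from 0.378 in female WT 2 and 0.384 in male HT 2 to 15.6 in male WT 1, a wider range than that of Cnpy1 to En2.

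Fgf17 was low at P0 and did not follow this split. Its values were 26.7, 18.1 and 20.9 in male HT against 4.51, 19.0 and 10.6 in male WT, and in females 18.0, 8.97 and 36.5 in HT against 11.1, 22.2 and 25.2 in WT. Of 3 other secreted signals of the isthmic list, Fgf8 was between 0 and 8.57, Wnt1 between 1.04 and 23.98 and Fgf18 between 42.3 and 125.5 over the 12 P0 libraries. Fgf18 was thus above Fgf17 in every P0 library.

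**Figure D1:**
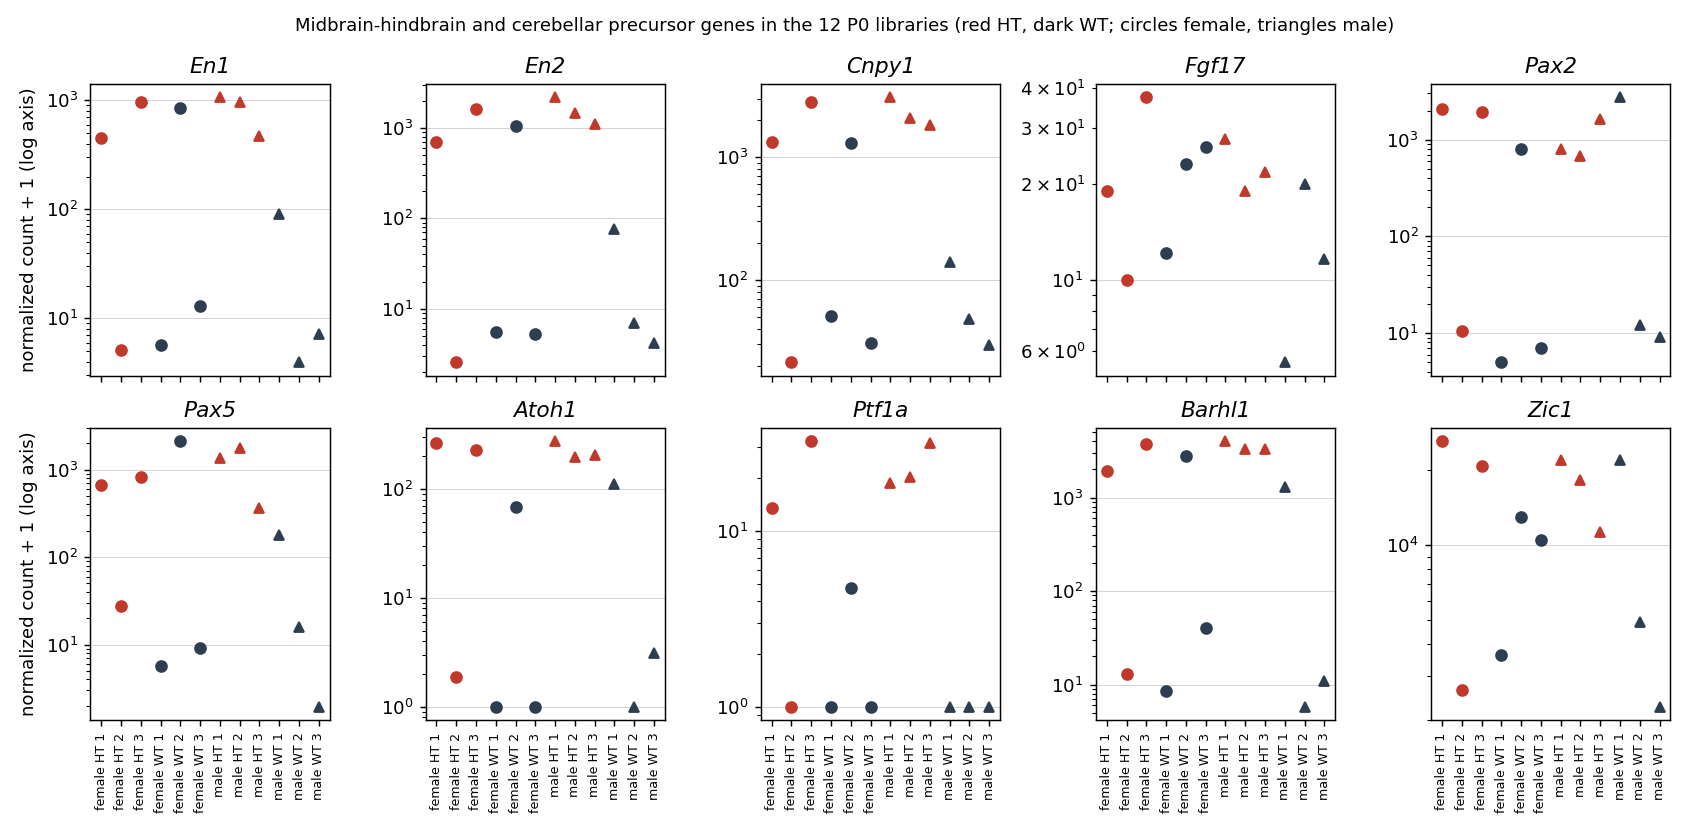
Normalized count plus 1 (vertical log axis, scaled for each gene) of the 10 genes in each of the 12 P0 libraries (horizontal axis), with HT in red, WT dark, circles for females and triangles for males. The same 5 libraries (female HT 2, WT 1 and WT 3, male WT 2 and WT 3) are lowest for En1, En2, Cnpy1, Pax2, Pax5, Atoh1, Barhl1 and Zic1, while Fgf17 lies between 4.51 and 36.5 without that order.

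Barhl1, the homeobox gene of granule cell precursors, showed the same division. It was 4006, 3333 and 3278 in male HT against 1307, 4.80 and 9.98 in male WT. In females it was 1907, 11.98 and 3770 in HT against 7.57, 2781 and 39.2 in WT. Male WT 1 thus held Barhl1 at 1307 with En2 at 75.1, a ratio of 17.4, whereas the ratio was between 1.82 and 2.96 in the 6 other libraries with En2 above 700.

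Atoh1, the rhombic lip determinant, was 274, 198 and 204 in male HT against 109, 0 and 2.15 in male WT. In females it was 262, 0.871 and 228 in HT against 0, 66.9 and 0 in WT. The 7 libraries with low telencephalon markers were again the ones with Atoh1. Ptf1a was lower, at 17.8, 19.3 and 30.3 in male HT, and was listed at 0 in all 3 male WT libraries. In females Ptf1a was 12.4, 0 and 31.3 in HT against 0, 3.71 and 0 in WT. Male WT 1 thus held Atoh1 with Ptf1a listed at 0, and female WT 2 held the lowest Atoh1 and Ptf1a of the libraries with En2 above 700. Zic1 was the least uneven of the precursor genes, between 11292 and 26082 in the 7 libraries and between 2254 and 10452 in the other 5.

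Markers of neighbouring regions differed among the 7 libraries as well. The summed level of 17 posterior hindbrain markers, mostly HOX genes, was 25000 in male WT 1, the highest of the 12, 13706 in female HT 1 and 11387 in male HT 3. It was 5473 in female HT 3 and 3762 in female WT 2. In male HT 1 and HT 2 it was only 650 and 1070, with Hoxa5 at 0 and 13.2, although En2 was 2201 and 1478 there. The 12 diencephalon markers summed to 18695 in female WT 2, where Pax5 was highest, to 14457 and 13936 in male HT 1 and HT 2, and to 3068 in male WT 1. The ratio of Pax2 to En2 stood in the order of the posterior hindbrain sums, at 36.8 in male WT 1, 2.98 in female HT 1, 1.48 in male HT 3, 1.18 in female HT 3, 0.755 in female WT 2, 0.454 in male HT 2 and 0.365 in male HT 1. The 3 libraries with more Pax5 than Pax2 (female WT 2, male HT 1 and male HT 2) were those with the highest diencephalon sums. Both orders are descriptions of 7 libraries and were not tested.

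In the 5 libraries with little En2, 7 to 9 of the 17 posterior hindbrain markers were listed at 0. In the 7 libraries 0 or 1 of the 14 telencephalon markers was at 0. Female WT 3, one of the 5, had diencephalon markers at 10092, Tcf7l2 at 8359 and Zic1 at 10452, the highest Zic1 of the 5. Markers of choroid plexus (309 to 75420) and blood (12485 to 23615) did not divide the P0 libraries in this way. Meninges markers ran from 3404 to 20347. Their medians were 14023 in male HT against 9174 in male WT, and 10989 in female HT against 6625 in female WT. Pituitary markers ran from 36.8 to 81.0. In a bulk sample fewer cells of a type and less RNA per cell cannot be told apart, and neither can a smaller piece of the region. The part of these regional differences in the P0 values of the 10 genes was not tested.

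**Figure D2:**
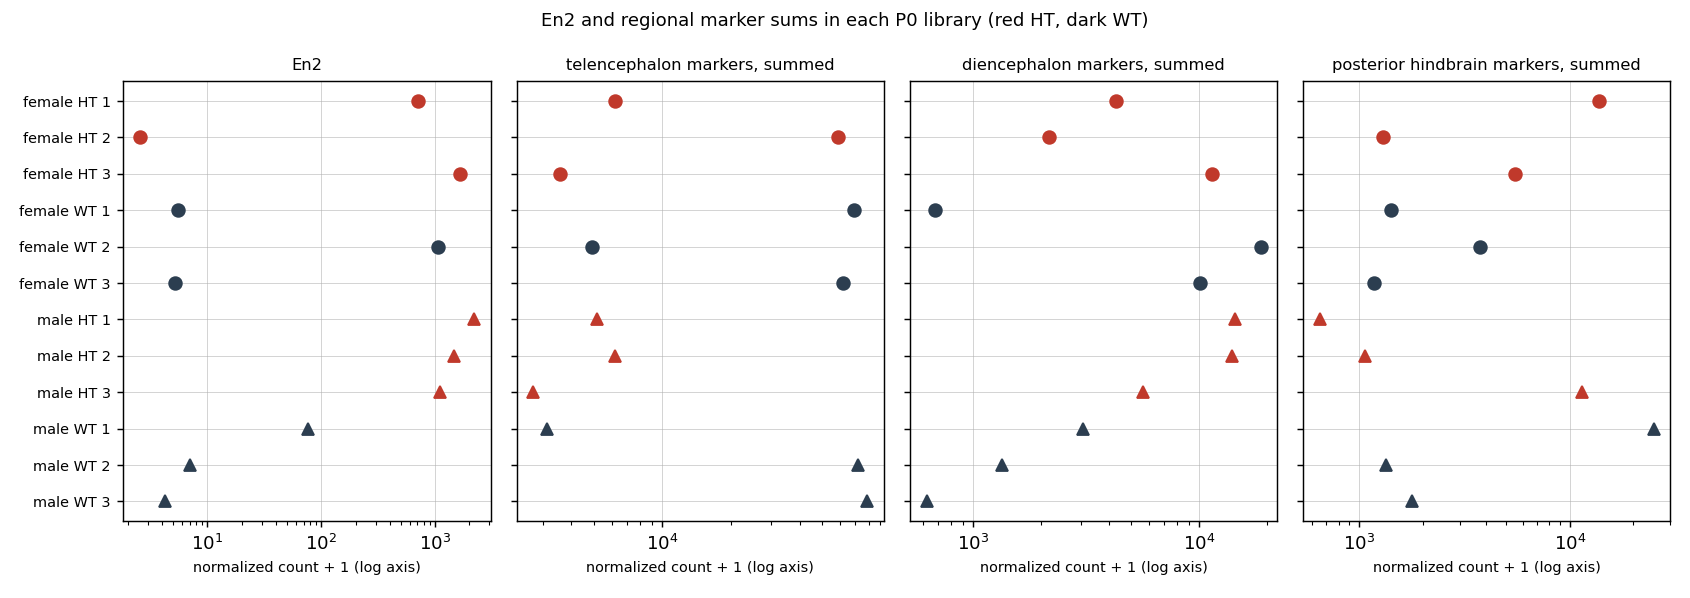
En2 and the summed levels of telencephalon, diencephalon and posterior hindbrain markers (horizontal log axes, normalized count plus 1) in each P0 library (rows), with HT in red and WT dark. The 5 libraries with En2 under 10 have telencephalon sums of 58558 or more, and the 7 others have sums of 6218 or less.

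Over the 12 P0 libraries the genes whose levels were most like that of En2 were Cnpy1 (Pearson's r 0.994 on the log2 scale) and En1 (0.988), the nearest 2 of 18338 genes. They were followed by Pcp2 (0.985), a Purkinje cell gene, Rora (0.981), a nuclear receptor of Purkinje cells, A930017K11Rik (0.979), Mab21l1 (0.976) and Wnt3 (0.975). Barhl1 ranked 20th (0.962), Atoh1 48th (0.947), Pax5 60th (0.944), Pax2 235th (0.905), Zic1 898th (0.833) and Fgf17 4470th (0.509). These likenesses describe 12 libraries that share the division by region, and are no test.

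In P0 males 7 of the 10 genes were higher in HT than in WT without overlap (all but Fgf17, Pax2 and Zic1), beside 12.1% of all genes tested whose groups did not overlap in either direction. The log2 differences of the 6 of them detected in WT lay between 4.99 (SE 1.54) for Atoh1 and 6.87 (SE 0.99) for En2. The telencephalon markers were 5156, 6183 and 2723 in HT against 3131, 71754 and 78906 in WT, so that male WT 1 lay within the HT range. Its posterior hindbrain markers summed to 25000, against 650, 1070 and 11387 in male HT. In P0 females all 9 of the genes with a mean of at least 10 overlapped, beside 7.35% of all genes that did not overlap, and the telencephalon markers were 6218, 58558 and 3576 in HT against 68724, 4929 and 61783 in WT. Without male WT 1 the log2 difference of Barhl1 in males was 8.79 in place of 6.33.

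At P25 and P80 the 10 genes stood at very unlike levels. P0 values are set beside them as descriptions only, because the P0 libraries differed in region. At P25 En2 was between 1063 and 1323 in all 12 libraries (median 1160), within the range of the 6 P0 libraries that held it above 700. Cnpy1 was between 3251 and 4215 (median 3580), above every P0 library. Zic1 was between 5696 and 6915. These 3 genes were at the highest levels per kb of exon at both later ages, with Zic1 at 1000 to 1215, Cnpy1 at 554 to 719 and En2 at 301 to 374 normalized counts per kb at P25, and no overlap between neighbours in this order.

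The other genes were far lower per kb at P25. En1 was at 21.7 to 34.7 per kb, Barhl1 at 25.1 to 42.9, Pax2 at 11.8 to 21.7, Fgf17 at 2.75 to 9.72 and Pax5 at 3.20 to 7.25. Barhl1 overlapped En1, Pax2 reached the lowest En1 library, and Fgf17 and Pax5 overlapped. Atoh1 was listed at 0 in 10 of 12 libraries at P25 and 8 of 12 at P80 and never passed 2.22 normalized counts. Ptf1a was listed at 0 in 9 and 6 of 12 libraries and never passed 3.12. The determinants of both cerebellar germinal zones were therefore at or near 0 at P25 and P80, while En2, Cnpy1 and Zic1 were not.

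En1 and En2 stood in another ratio at P25 and P80 than in the P0 libraries, which differed in region, so this is not read as a change with age. The ratio of En2 to En1 was between 0.830 and 2.36 in the 7 P0 libraries, between 11.9 and 20.8 at P25 and between 10.5 and 18.4 at P80. En1 was between 56.8 and 91.1 at P25 and between 46.4 and 91.2 at P80, lower than in each of the 6 P0 libraries with high En2. The ratio of Barhl1 to En2 was lower at P25, between 0.0830 and 0.156 against between 1.82 and 17.4 in the 7 P0 libraries. The ratio of Cnpy1 to En2 was higher at P25, between 2.76 and 3.86 against 1.89 or less in the 7 P0 libraries.

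**Figure D3:**
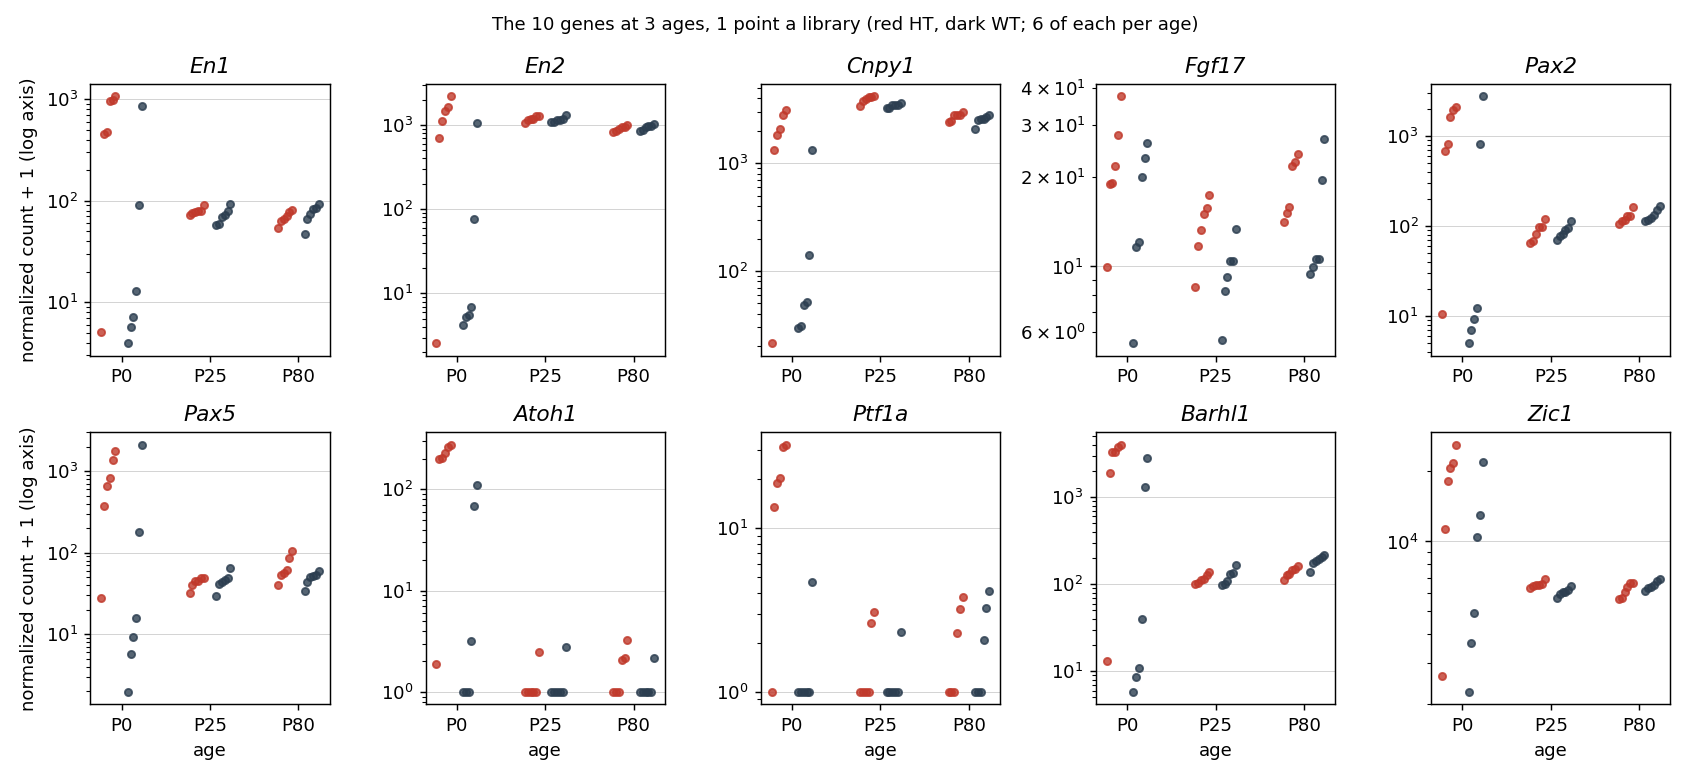
Normalized count plus 1 (vertical log axis, scaled for each gene) of the 10 genes at P0, P25 and P80 (horizontal axis), 1 point a library, with 6 HT (red) and 6 WT (dark) libraries per age. At P25 and P80 En2 lies between 828 and 1323 and Cnpy1 between 2078 and 4215, while Atoh1 and Ptf1a stay at 3.12 or less.

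En2 and Cnpy1 were lower at P80 than at P25, and the ages did not overlap. En2 was between 828 and 1016 at P80, and the P80 median was 0.81 of that at P25. Cnpy1 was between 2078 and 3025, and its median ratio was 0.74. These 2 of the 8 genes with a mean of at least 10 were without overlap over 12 libraries against 12, as were 12.1% of all genes. Pax2 (64.1 to 117 at P25, 103 to 166 at P80), Barhl1 (98.2 to 167, then 112 to 218) and Fgf17 (4.64 to 16.4, then 8.45 to 25.9) had higher medians at P80, by ratios of 1.47, 1.37 and 1.44, with overlap. The ratios were 1.18 for Pax5 and 0.95 for En1, and the medians of Zic1 were 6365 at P25 and 6383 at P80.

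In WT libraries alone the log2 differences from P25 to P80 were -0.44 (SE 0.05) for Cnpy1, -0.31 (SE 0.06) for En2, 0.61 (SE 0.13) for Pax2 and 0.60 (SE 0.14) for Barhl1. HT libraries in place of WT gave 0.25 for Barhl1, 0.57 for Pax5 in place of 0.10 and -0.08 for Zic1 in place of 0.10. Cnpy1, En2 and Pax2 did not move by more than the spread between libraries. The step from P0 to P25 in WT rests on 6 P0 libraries, of which 4 had En2 at 5.99 or less, so it takes in the division by region. With HT libraries in place of WT the P25 minus P0 log2 difference was 1.34 for En2 in place of 5.83, -2.02 for En1 in place of 1.60 and -3.46 for Barhl1 in place of 0.89. These P0 differences of the 10 genes were therefore not read as a change with age.

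At the later ages the genotypes overlapped for most of the 10 genes. Of the 8 tested in P80 males, Pax5 had the largest log2 difference, 0.69 (SE 0.34), with overlap. It was 85.1, 39.2 and 103 in HT against 42.1, 58.6 and 32.7 in WT. Cnpy1 in P25 females was 3941, 4105 and 4215 in HT against 3508, 3491 and 3470 in WT, without overlap, with a log2 difference of 0.23 (SE 0.04). In P25 males it was 4140, 3770 and 3430 in HT against 3260, 3651 and 3251 in WT, with overlap and a difference of 0.16 (SE 0.08). HT libraries thus had the higher Cnpy1 mean in both sexes at P25, by an amount that in males was within the spread of the libraries taken as unpaired. Same-numbered male libraries deviated together at this age, with correlations of 0.140 to 0.289. The sample titles number the replicates but name no pairs. Paired by number, HT was the higher in each male pair (4140 and 3260, 3770 and 3651, 3430 and 3251), which was not tested. In P80 males Cnpy1 was 2810, 3025 and 2445 in HT against 2078, 2578 and 2518 in WT, a difference of 0.21 (SE 0.09) with overlap. In P80 females it was 2803, 2810 and 2391 in HT against 2576, 2809 and 2697 in WT, a difference of -0.02 (SE 0.07).

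En2, the neighbour of Cnpy1, overlapped between the genotypes in all 4 of these comparisons. Its HT and WT means were 1212 ± 65.9 and 1182 ± 128 in P25 males and 1167 ± 112 and 1135 ± 48.1 in P25 females (SD, n = 3), and its log2 differences ran from -0.05 (SE 0.07) in P80 females to 0.04 (SE 0.08) in P25 males. The Cnpy1 difference in P25 females was thus seen without one of like size in En2.

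Barhl1 in P80 females was 112, 128 and 130 in HT against 172, 193 and 218 in WT, lower in HT without overlap, with a log2 difference of -0.65 (SE 0.13) that stayed between -0.73 and -0.56 with any 1 library left out. HT 2 and HT 3 of these libraries had high pituitary markers, with summed levels of 64877 and 26576, against 150.5 in HT 1 and at most 242.9 in WT. Barhl1 was 112 in HT 1, whose pituitary markers were low. Zic1 in P80 females was 6047, 5730 and 5676 in HT against 6280, 6506 and 6386 in WT, a difference of -0.14 (SE 0.04). Markers of the meninges, a tissue that expresses Zic1, summed to 5543 in HT 3 and to between 2095 and 2536 in the 5 others. The part of pituitary and meninges RNA in these differences was not tested. In P25 females Zic1 was 6576, 6410 and 6507 in HT against 6062, 6040 and 6169 in WT, a difference of 0.09 (SE 0.04), so the non-overlapping order of the genotypes was opposite at the 2 ages.

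Fgf17 in P25 females was 14.8, 14.0 and 10.8 in HT against 9.42, 9.40 and 4.64 in WT, a log2 difference of 0.73 (SE 0.40) at a level near the minimum mean of 10 used for testing. In P25 females these 3 genes (Cnpy1, Zic1 and Fgf17) of 8 with a mean of at least 10 did not overlap, all higher in HT, beside 11.9% of all genes, and in P80 females 2 of 8 (Barhl1 and Zic1), both lower in HT, beside 17.6%. In P25 males and P80 males 0 of 8 were without overlap, beside 8.55% and 9.54%.

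**Figure D4:**
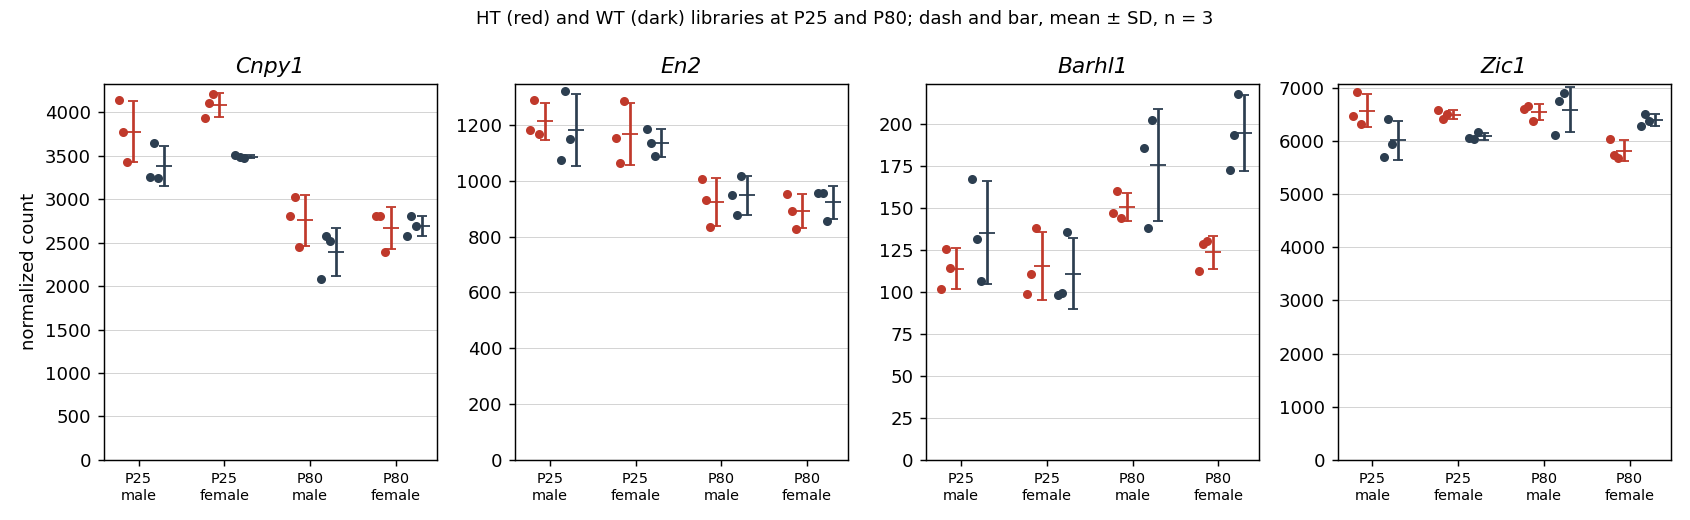
Normalized counts (vertical axes from 0) of Cnpy1, En2, Barhl1 and Zic1 in HT (red) and WT (dark) libraries at P25 and P80 by sex (horizontal axis), 1 point a library, with the mean ± SD of 3 beside them. Cnpy1 in P25 females and Barhl1 and Zic1 in P80 females show no overlap between the genotypes, and En2 overlaps throughout.

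Across the 24 later libraries the genes most like Cnpy1 were not its neighbour or the other boundary genes. They were Adamts18 (Pearson's r 0.933), Casr (0.925), Capn5 (0.923), Aplnr (0.919) and Tmem169 (0.912) among 18187 genes. En2 ranked 367th (0.825), whereas Barhl1 (-0.626) and Pax2 (-0.675) ran opposite to Cnpy1. The 24 libraries share the step from P25 to P80, over which Cnpy1 and En2 were lower and Barhl1 and Pax2 higher in median.

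Sex played no part in the choice of the genes, and females were compared with males by limma over both genotypes. At P0 0 of 9 genes were called (0 at an unadjusted p under 0.05), beside 0.0382% of all genes, and the spread between libraries left standard errors of 0.42 to 1.88 on the log2 scale. At P25 0 of 8 were called (0 unadjusted), beside 4.65% of all genes. At P80, 0 of 8 were called (1 unadjusted), beside 1.83% of all genes. The smallest p was that of Zic1 at P80, at 6104 ± 346 in females and 6568 ± 285 in males (SD, n = 6), a log2 difference of -0.11 (SE 0.04, limma adjusted p = 0.152). Without male WT 1 it was -0.14 (limma adjusted p = 0.0289). Cnpy1 differed by 0.08 (SE 0.04, limma adjusted p = 0.269) at P25 and 0.07 (SE 0.07, limma adjusted p = 0.684) at P80, and En2 by -0.06 (SE 0.06, limma adjusted p = 0.576) and -0.04 (SE 0.06, limma adjusted p = 0.748).

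Around these 10 genes, 87 further genes of 4 lists were tested, namely 25 isthmic patterning and FGF pathway genes, 23 of the granule cell lineage, 23 of the Purkinje cell and GABAergic lineage and 16 of midbrain and raphe neurons. From P25 to P80 in WT 39 of 78 tested genes were called by limma at an adjusted p under 0.05, beside 41.9% of all genes, 23 higher and 16 lower, with a list median of 0.07 on the log2 scale beside 0.008 over all genes.

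Among isthmic and FGF genes 8 of 23 rose and 5 fell from P25 to P80, beside 41.9% of all genes called in either direction. Spry4, a feedback inhibitor of FGF signalling, rose from 450 ± 39.2 to 857 ± 114 (SD, n = 6), by 0.92 (SE 0.08, limma adjusted p = 3.76e-07). The receptor Fgfr3 rose by 0.84 (SE 0.07, limma adjusted p = 1.74e-07) and Fgfr1 by 0.45 (SE 0.05, limma adjusted p = 6.74e-06), and the midbrain factor Lmx1b by 0.87 (SE 0.17, limma adjusted p = 0.000863). The feedback inhibitors Spry1 and Spry2 fell by 0.26 and 0.20 on the log2 scale (SE 0.07 and 0.06, limma adjusted p = 0.00564 and 0.0151). The Canopy family genes Cnpy2 and Cnpy4 fell by 0.25 each (SE 0.07 and 0.08, limma adjusted p = 0.0112 and 0.0254), in the direction of Cnpy1. The sprouty genes thus moved both ways, and the 3 FGF receptors called all rose.

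In the granule cell list 2 of 21 genes rose and 5 fell from P25 to P80, beside 41.9% of all genes called in either direction. Reln, which encodes the secreted protein reelin, fell by 0.48 (SE 0.06, limma adjusted p = 2.36e-05), Cbln1, a synaptic organizer of parallel fibres, by 0.38 (SE 0.05, limma adjusted p = 2.22e-05), and Neurod1 by 0.31 (SE 0.05, limma adjusted p = 6.88e-05). Eomes, a marker of unipolar brush cells, rose by 0.68 (SE 0.12, limma adjusted p = 0.000275), and Gli1, a target of hedgehog signalling, by 0.64 (SE 0.09, limma adjusted p = 4.43e-05). The mature granule cell gene Gabra6 was between 2855 and 4243 at P25 and between 2734 and 3496 at P80 and was not called.

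In the Purkinje cell and GABAergic list 9 of 21 genes rose and 6 fell, beside 41.9% of all genes called in either direction. Itpr1 rose by 0.58 (SE 0.07, limma adjusted p = 1.18e-05) and Lhx1 by 0.62 (SE 0.09, limma adjusted p = 7.61e-05). Olig2, a gene of oligodendrocytes as well, fell by 0.60 (SE 0.06, limma adjusted p = 7.65e-07) and Neurog2 by 0.95 (SE 0.19, limma adjusted p = 0.00111). In the midbrain and raphe list 4 of 13 rose and 0 fell, beside 41.9% of all genes called in either direction. The 4 were Th (0.32), Slc6a3 (0.36), Nr4a2 (0.33) and Gata2 (0.47), with limma adjusted p between 0.00591 and 0.0462. The first 3 of these act in dopamine neurons.

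**Figure D5:**
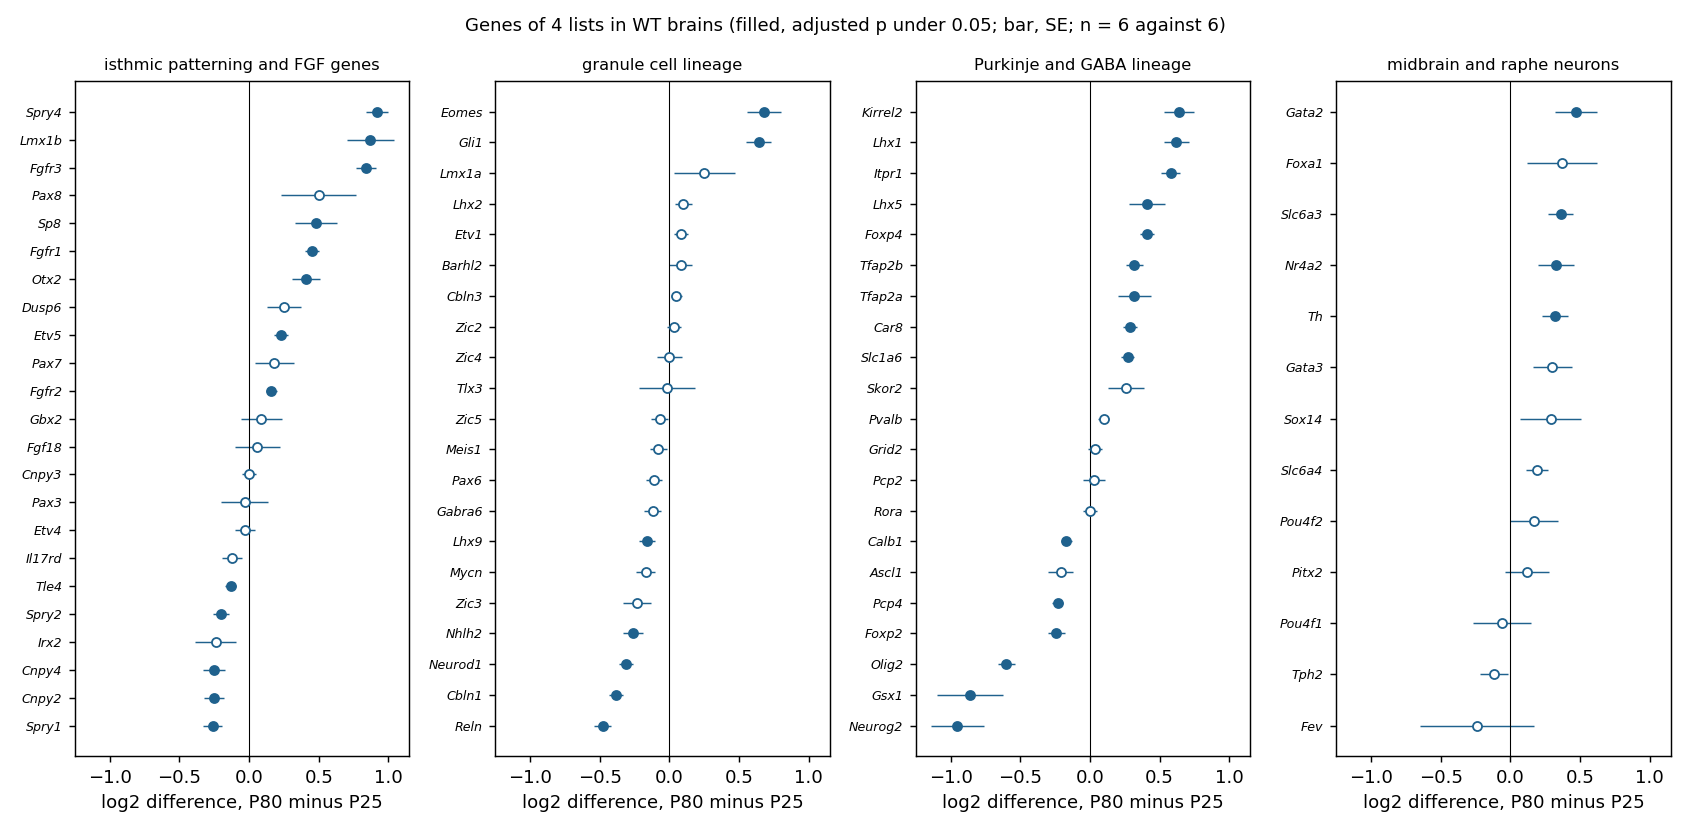
Log2 difference (horizontal axis, P80 minus P25, bar for the SE) of each tested gene of 4 lists (rows, by size within a list) in WT libraries, 6 against 6, with filled points for a limma adjusted p under 0.05. Of the isthmic and FGF genes 8 are filled to the right of 0 and 5 to the left, of the granule cell genes 2 and 5, of the Purkinje and GABAergic genes 9 and 6, and of the midbrain and raphe genes 4 and 0.

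From P0 to P25 in WT 41 of 82 list genes were called, beside 71.5% of all genes, 23 higher and 18 lower, with a list median of 0.38 beside -0.002 over all genes. Some of these genes were low in all 12 P0 libraries, including those with high En2, and high in all later ones. Gabra6 was between 0 and 14.6 at P0, and Cbln3, a granule cell gene, was between 52.5 and 98.8 at P0 and between 7244 and 8989 at P25. For the Purkinje cell genes Pcp2 (4.20 to 612 at P0) and Pvalb (2.10 to 133 at P0, also of interneurons) the P25 ranges of 1628 to 2416 and 3182 to 3907 likewise lay above every P0 library. Among genes of progenitors and young neurons, Mycn was lower by 2.31 (SE 0.34, limma adjusted p = 5.74e-05), Il17rd, an FGF antagonist, by 1.76 (SE 0.19, limma adjusted p = 4.74e-06), and Eomes by 1.69 (SE 0.23, limma adjusted p = 2.67e-05). Their P25 ranges lay below every P0 library, but these sizes take in the division by region. With HT libraries in place of WT 57 list genes were called.

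Between the genotypes, limma called 0 list genes in each of the 6 comparisons. Of all genes it called 0% and 0.00547% in P0 males and females, 0.0166% and 0% at P25, and 0.0166% and 0.0385% at P80. At an unadjusted p under 0.05 there were 45 of 82 list genes in P0 males, beside 7.17% of all genes, and 3 of 83 in P0 females, beside 2.15%. At P25 there were 4 of 78 in males, beside 3.48%, and 11 of 79 in females, beside 6.01%. At P80 there were 3 of 78 in males, beside 4.59%, and 11 of 77 in females, beside 11.3%. In P0 males the median log2 difference was 3.04 for the midbrain and raphe list, 1.27 for the Purkinje cell and GABAergic list, 1.24 for the granule cell list and 0.13 for the isthmic and FGF list, beside -0.019 over all genes. The regional markers given above differed among the same libraries. Without male WT 1 limma called 59 list genes there. At the later ages the list medians lay between -0.08 and 0.08.

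Between the sexes limma called 0 of 82 list genes in newborns (0 at an unadjusted p under 0.05), beside 0.0382% of all genes (0.867% unadjusted). For P25 it called 1 of 78 (17 unadjusted), beside 4.65% of all genes (26.1% unadjusted). For P80 it called 3 of 78 (14 unadjusted), beside 1.83% of all genes (16.7% unadjusted). Over all genes, 466 of 843 P25 calls and 251 of 333 P80 calls were lower in females. The list calls were all lower in females. At P80 these were Eomes, at 309 ± 37.9 in females and 448 ± 44.2 in males (SD, n = 6), a log2 difference of -0.54 (SE 0.09, limma adjusted p = 0.00552), Etv5, an FGF target, at -0.19 (SE 0.04, limma adjusted p = 0.0166), and Tfap2b at -0.41 (SE 0.09, limma adjusted p = 0.0379). At P25 it was Mycn, at -0.32 (SE 0.08, limma adjusted p = 0.0462), a call that was lost when any of 10 of the 12 libraries was left out, while 8 genes were called without male HT 1 and 4 without male WT 1.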

How the data were processed

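RNA was sequenced from mouse brain in 36 libraries (TruSeq RNA v2 kit, paired reads). Per the labels and the study's methods, the authors quantified transcripts with Salmon 1.1.0 on GRCm38 and obtained gene values by tximport and DESeq2 1.26.0 normalization. The deposited signal is an estimated count divided by factors that differ between genes. Whole reads could not be recovered, the annotation release and any pooling are not given in the sources used here, and depth is known only on this scale, on which library sums ran from 31872449 to 38154000.

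The 10 genes and all lists were chosen with earlier results of these data known. Groups came from sample titles, and 0 columns were unmatched. Of 29799 gene IDs 29747 were named. Comparisons used limma 3.58.1 in R 4.3.3 (two-sided, lmFit and trended eBayes) on log2(value + 1), which understates changes of low genes. Genes entered where their mean over the compared libraries was 10 or more, and p-values were adjusted over all of them (Benjamini-Hochberg, threshold 0.05). HT was compared with WT within age and sex, females with males within age (genotype as covariate), and ages within WT (sex as covariate). Scripts were checked on simulated data. Genes named were the 10 genes, Chd8, of each list the called genes with the largest differences (up to 5 in each direction), the 5 genes most like En2 and Cnpy1, and defining markers. Fgf8, Fgf18, Wnt1, Hoxa5, Tcf7l2, Irx2 and Gata3 were named after their values were seen. Marker lists were telencephalon, diencephalon, posterior hindbrain, choroid plexus, meninges, blood and pituitary. Likeness was Pearson's r on log2(value + 1). Levels per kb used the union of exons in GENCODE vM21. In P25 males same-numbered HT and WT libraries deviated together (correlations of 0.289, 0.189 and 0.140), so the numbers were taken to pair there. This pairing is inferred, because the sample titles number the replicates but name no pairs. Alternatives were other pseudocounts, filters, scaling, 1 model of all libraries, a replicate block and leaving out each library, and, chosen after seeing the data, HT libraries for the age comparisons. P-values measure the spread between libraries, 3 against 3 in each genotype comparison and 6 against 6 in each sex or age comparison.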

Additional observations from a re-analysis of the deposited data

Results flagged for a closer look

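In 6 genes HT and WT libraries did not overlap at 2 ages of the same sex and stood in opposite order, and the difference between the ages was not tested. These are 6 of the 92 genes of the 10 and the lists that could be screened in this way (6.52%), over pairs of ages within a sex and of sexes within an age, beside 2.78% of all 19272 genes screened. Zic1 in females had log2 differences (HT minus WT) of 0.09 at P25 and -0.14 at P80. Tfap2b, a transcription factor of cerebellar GABAergic neurons, had 0.40 at P25 and -0.39 at P80 in females. In the other 4 genes 1 of the ages was P0, where regional markers differed between libraries as described above. Irx2 in males had 5.14 at P0 and -0.30 at P25, Calb1 in males 1.09 at P0 and -0.07 at P80, Gata3 in males 5.77 at P0 and -0.44 at P80, and Neurod1 in females 1.04 at P0 and -0.20 at P80.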

How the results depend on the processing

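The number of list genes called between HT and WT (0 in all 6 comparisons) was 35 in P0 males and 1 in P0 females with 1 model of all 36 libraries, and between 0 and 59 in P0 males with 1 library left out, 59 without male WT 1. In the other 4 comparisons it stayed 0 under each alternative run. Between the sexes at P25 the 1 call became 0 with no filter, 2 at a minimum mean of 100, 0 with 1 model of all libraries and between 0 and 8 with 1 library left out. At P80 the 3 calls became 6 at a minimum mean of 100 and 0 with 1 model. Of the 10 genes, 0 were called at P80 between the sexes, and between 0 and 1 with 1 library left out (Zic1, without male WT 1). From P25 to P80 in WT the 39 calls became 13 with 1 model of all libraries and 36 with HT libraries. The causes were not tested. With the replicate block list calls became 1 in P0 males and 3 between the sexes at P25, and the block changed no other count by over 1.5 times. In P25 males, where the numbers were taken to pair the libraries, it left 0 calls. Elsewhere not every correlation of same-numbered libraries was over 0.1 (P0 females, HT and WT: -0.713 to -0.179). Of 1438 alternative values for single genes of the 10, 12 moved by more than the spread between libraries, 1 passed the threshold and the rest did neither. A reversed call was not possible, because 0 of the 10 genes were called between the sexes. The spread at P0 was wide, so values there could shift far without counting as moved. The log2 difference of En2 between HT and WT in P0 females ran from 0.44 to 5.10 with 1 library left out.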
